A study of Mus musculus with 36 samples.

Results

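The core circadian clock was followed through 10 genes, Arntl, Clock, Npas2, Per1, Per2, Per3, Cry1, Cry2, Nr1d1 and Nr1d2, out of 24061 gene names, in RNA sequenced from 3 cell types of the mouse heart. The genes were chosen by name, and each was represented by the RefSeq transcript that held most reads in the 36 libraries together. Hearts of wild-type C57Bl6J mice had received 12 Gy in a single fraction from a small animal microirradiator (RT) or a sham procedure (Sham). Endothelial cells, myocytes and fibroblasts were collected 6 hours, 7 days and 28 days later, and each of the 18 groups of cell type, treatment and time had 2 libraries, 36 in all. The labels give neither the hour of day nor the age of the mice, do not say how the cells were separated, and do not say whether the 2 libraries of a group came from separate mice. The p-values therefore measure only the spread between libraries, which may be technical. Levels are read counts scaled to library size (CPM). A difference was called where edgeR's quasi-likelihood test, adjusted over all genes tested by the Benjamini-Hochberg method, gave a p under 0.05. Fold changes are on the log2 scale, ± SE, taken as the size of the fold change over the square root of the test's F. They set 2 libraries against 2, except that Sham levels between cell types set 6 against 6.

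The mammalian clock is a loop of transcription that runs with a period of about a day in nearly every cell. BMAL1, the product of Arntl, pairs with CLOCK or its paralog NPAS2, binds E-box sequences and activates the Per, Cry and Nr1d genes. The PER and CRY proteins return to the nucleus and repress that activation, while REV-ERB alpha and beta, the products of Nr1d1 and Nr1d2, repress Arntl and its partner genes through RORE sequences. In the heart the clock is known for daily rhythms in metabolism, ion channels and the response to stress, and the activator genes peak in antiphase to the Nr1d and Per genes. The level of a clock gene in a tissue therefore depends on the hour at which it is taken.

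The sequences around the start sites are shown because the members differ in which clock elements they carry there. RefSeq windows (GRCm38.p6, 250 bases before to 50 after a start) were found for 9 of the 10 genes. They were searched on both strands for the E-box CACGTG, the variant E-box CACGTT, the D-box TTATGNAA, the RORE TAGGTNA and the cyclic AMP response element TGACGTCA. Of all 32851 windows, 7.15% held the E-box, 4.68% its variant, 3.38% a D-box, 8.29% a RORE and 1.79% a cyclic AMP response element. The matches are printed in capitals, and positions count from the start site.

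Arntl, chr7:113207261-113207560, plus strand, with a RORE at -6 and another at 31: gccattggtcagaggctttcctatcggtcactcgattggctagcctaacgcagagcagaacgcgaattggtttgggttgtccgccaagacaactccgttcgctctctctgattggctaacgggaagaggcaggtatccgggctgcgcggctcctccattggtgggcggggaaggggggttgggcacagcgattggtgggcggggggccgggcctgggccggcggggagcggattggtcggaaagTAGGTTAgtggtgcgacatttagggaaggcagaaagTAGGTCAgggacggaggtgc
Per3, chr4:151044616-151044915, minus strand, with D-boxes at -205 and -158: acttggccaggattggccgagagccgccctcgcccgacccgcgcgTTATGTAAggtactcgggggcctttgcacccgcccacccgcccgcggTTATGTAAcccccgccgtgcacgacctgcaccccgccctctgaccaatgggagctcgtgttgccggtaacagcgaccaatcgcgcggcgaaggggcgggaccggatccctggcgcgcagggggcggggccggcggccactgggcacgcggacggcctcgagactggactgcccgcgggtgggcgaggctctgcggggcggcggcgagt
Per1, chr11:69098699-69098998, plus strand, with an E-box at -166 and a D-box at -24: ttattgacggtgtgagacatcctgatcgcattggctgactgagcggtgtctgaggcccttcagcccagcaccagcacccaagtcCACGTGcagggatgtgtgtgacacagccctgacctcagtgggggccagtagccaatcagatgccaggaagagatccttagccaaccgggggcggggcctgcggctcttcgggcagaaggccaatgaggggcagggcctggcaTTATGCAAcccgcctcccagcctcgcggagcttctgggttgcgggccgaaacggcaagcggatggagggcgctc
Cry1, chr10:85185005-85185304, minus strand, with a variant E-box at -79 and an E-box at -60: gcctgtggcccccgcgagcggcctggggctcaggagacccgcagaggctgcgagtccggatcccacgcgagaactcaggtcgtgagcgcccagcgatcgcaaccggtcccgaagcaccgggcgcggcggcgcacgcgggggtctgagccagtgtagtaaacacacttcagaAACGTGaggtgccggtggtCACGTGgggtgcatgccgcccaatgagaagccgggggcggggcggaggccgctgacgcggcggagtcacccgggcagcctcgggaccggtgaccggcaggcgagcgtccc
Nr1d1, chr11:98775328-98775627, minus strand, with a variant E-box at -28: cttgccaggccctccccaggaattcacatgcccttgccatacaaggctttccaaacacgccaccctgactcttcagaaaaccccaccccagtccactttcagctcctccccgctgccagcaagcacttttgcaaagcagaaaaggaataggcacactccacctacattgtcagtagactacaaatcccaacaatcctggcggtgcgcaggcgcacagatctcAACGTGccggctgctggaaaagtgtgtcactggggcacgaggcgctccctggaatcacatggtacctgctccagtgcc

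The printed Arntl window was among the 0.557% of windows with 2 or more ROREs, and the Per3 window among the 0.161% with 2 or more D-boxes. Arntl and Per1 had another window each, with 1 match for Arntl and 0 for Per1. For both genes the window with more matches is printed, while the shares count every window singly. Cry2 held a variant E-box at -166. The windows of Clock, Npas2 and Nr1d2 held none of these letters, which says nothing about elements elsewhere. A match is a string of letters and not a measured binding site.

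Depth ran from 25.91 to 45.49 M reads in endothelial, from 25.63 to 31.94 M in fibroblast and from 10.18 to 19.42 M in myocyte libraries. Each cell type was led by its own markers. The 10 endothelial markers summed to 15500 to 24320 CPM in endothelial libraries, the 10 myocyte markers to 82780 to 100700 CPM in myocyte libraries and the 10 fibroblast markers to 64700 to 82540 CPM in fibroblast libraries. Fibroblast markers also reached 2652 to 6619 CPM in endothelial and 4487 to 7965 CPM in myocyte libraries, with none of the 10 at 0. Endothelial markers summed to 2261 to 4796 CPM in myocyte and 877.4 to 1531 CPM in fibroblast libraries. Macrophage markers summed to 470.9 to 869.1 CPM in myocyte libraries. The part of RNA from other cell types in the clock gene levels, those of myocytes included, was not tested. Cdkn1a, the p53 target that encodes p21, checked the treatment labels: the log2 fold change of RT over Sham at 6 hours was 1.88 in endothelial cells, 2.15 in myocytes and 2.93 in fibroblasts. In the same order it was 1.47, 2.27 and 1.48 at 7 days and 1.325, 0.82 and 1.14 at 28 days. All were called except that of myocytes at 28 days (adjusted p = 0.20). Sham myocytes of 28 days also held more Cdkn1a than those of 7 days, by 1.48 (adjusted p = 0.027). The first RT myocyte library of 7 days stood apart from its partner, with a chi-square of 119.8 per degree of freedom between the pair against 5.14 to 41.3 in the other groups. The disagreement of this pair adds to the spread of every myocyte comparison, so the counts of clock genes called in myocytes are also given without it. In bulk RNA, fewer cells of a type and less RNA per cell cannot be told apart.

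In Sham libraries the order of the genes per transcript length and library size (RPKM) was led by Nr1d1 in all 3 cell types. Its median over the 6 Sham libraries of a cell type was 49.72 RPKM in endothelial cells, 39.25 in myocytes and 65.35 in fibroblasts. Per1 and Nr1d2 came next, at medians of 23.55 and 22.07 RPKM in endothelial cells, 13.53 and 16.81 in myocytes and 17.97 and 16.12 in fibroblasts. The ranges of Per1 and Nr1d2 overlapped in each cell type. By median, Npas2 was lowest in endothelial cells at 0.8416 RPKM and in myocytes at 0.2794, whereas Per3 was lowest in fibroblasts at 1.278 RPKM. In fibroblasts the range of Per3, 1.002 to 3.731 RPKM, overlapped those of Cry1 (1.376 to 2.758) and Npas2 (1.192 to 8.337). In endothelial cells the ranges of Npas2 and Per3 overlapped as well. Among the activators, Clock and Arntl were at 7.153 and 5.771 RPKM in endothelial cells, 3.071 and 1.062 in myocytes and 8.651 and 12.42 in fibroblasts. The ranges of Arntl and Clock overlapped in each cell type.

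Over the 3 times, 6 of the 10 genes differed in Sham level between fibroblasts and endothelial cells, 5 higher and 1 lower, where 74.2% of all 16234 genes tested did, 36.7% higher and 37.5% lower. Npas2 was higher in fibroblasts by 3.10 ± 0.14 on the log2 scale (adjusted p = 2e-16) and Arntl by 1.12 ± 0.10 (adjusted p = 7.6e-11). Cry1, a strong repressor of the loop, ran the other way, lower in fibroblasts by a log2 fold change of -1.21 ± 0.08 (adjusted p = 2.1e-13). Clock, Cry2 and Nr1d1 were also higher in fibroblasts, by 0.39, 0.45 and 0.43. As a mean over the 3 times, myocytes held less Arntl and Clock than either other cell type. Arntl was -0.96 ± 0.11 against endothelial cells (adjusted p = 2.1e-08) and -2.08 ± 0.11 against fibroblasts (adjusted p = 2.8e-15). In the same order Clock was -0.46 ± 0.10 and -0.85 ± 0.11. At 6 hours, though, Arntl was at 5.49 and 4.78 CPM in Sham myocytes, near the 5.69 and 5.94 CPM of Sham endothelial cells. Npas2 was lower in myocytes than in fibroblasts, at -3.43 ± 0.17 (adjusted p = 5e-16), and was not called against endothelial cells, at -0.33 ± 0.20 (adjusted p = 0.13). Myocytes held more Cry2 than endothelial cells, by 0.87 ± 0.06 (adjusted p = 3e-13), and more than fibroblasts, by 0.42 ± 0.06. The Cry2 call against fibroblasts was lost with limma on log2(RPKM + 1) (adjusted p = 0.75). The myocyte calls numbered 6 against endothelial cells, 2 higher and 4 lower, where 79.3% of all genes were called, 37.5% higher and 41.8% lower. Against fibroblasts they numbered 7, 3 higher and 4 lower, where 81.3% of all genes were called, 39.4% higher and 41.9% lower. As a mean over the 3 times, Per3 was higher in myocytes than in endothelial cells, by 0.55, and than in fibroblasts, by 0.43. Against fibroblasts limma on log2(RPKM + 1) gave -0.029, and edgeR with a replicate block lost the call (adjusted p = 0.14). A Sham fibroblast library of 6 hours held 36.02 CPM of Per3, above the highest Sham myocyte library, at 25.89 CPM. With limma the Per3 call against endothelial cells was lost as well (adjusted p = 0.56). Cry1 was -0.64 in myocytes against endothelial cells and 0.57 against fibroblasts, both called. Its call against fibroblasts was lost with limma (adjusted p = 0.15). Against endothelial cells Per1 was also lower in myocytes, at -0.23, and against fibroblasts Nr1d1 was, at -0.46. Per1 lost its call in 7 alternatives, RLE factors and DESeq2 among them. No call was made in any of the 3 pairs for Per2, which had log2 differences of 0.17, -0.12 and -0.28, nor for Nr1d2, which had -0.07, 0.03 and 0.10.

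Over all 36 libraries Npas2 spanned the widest range, 147-fold between its lowest library, the RT myocyte library that stood apart, and its highest, a fibroblast Sham library of 7 days. Arntl spanned 43.1-fold between the same library and another fibroblast Sham library of 7 days. Cry2 varied least, from 23.9 to 59.2 CPM or 2.48-fold. The lowest value of Clock, Per1, Per2 and Nr1d2 also fell in the RT myocyte library that stood apart.

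**Figure D1:**
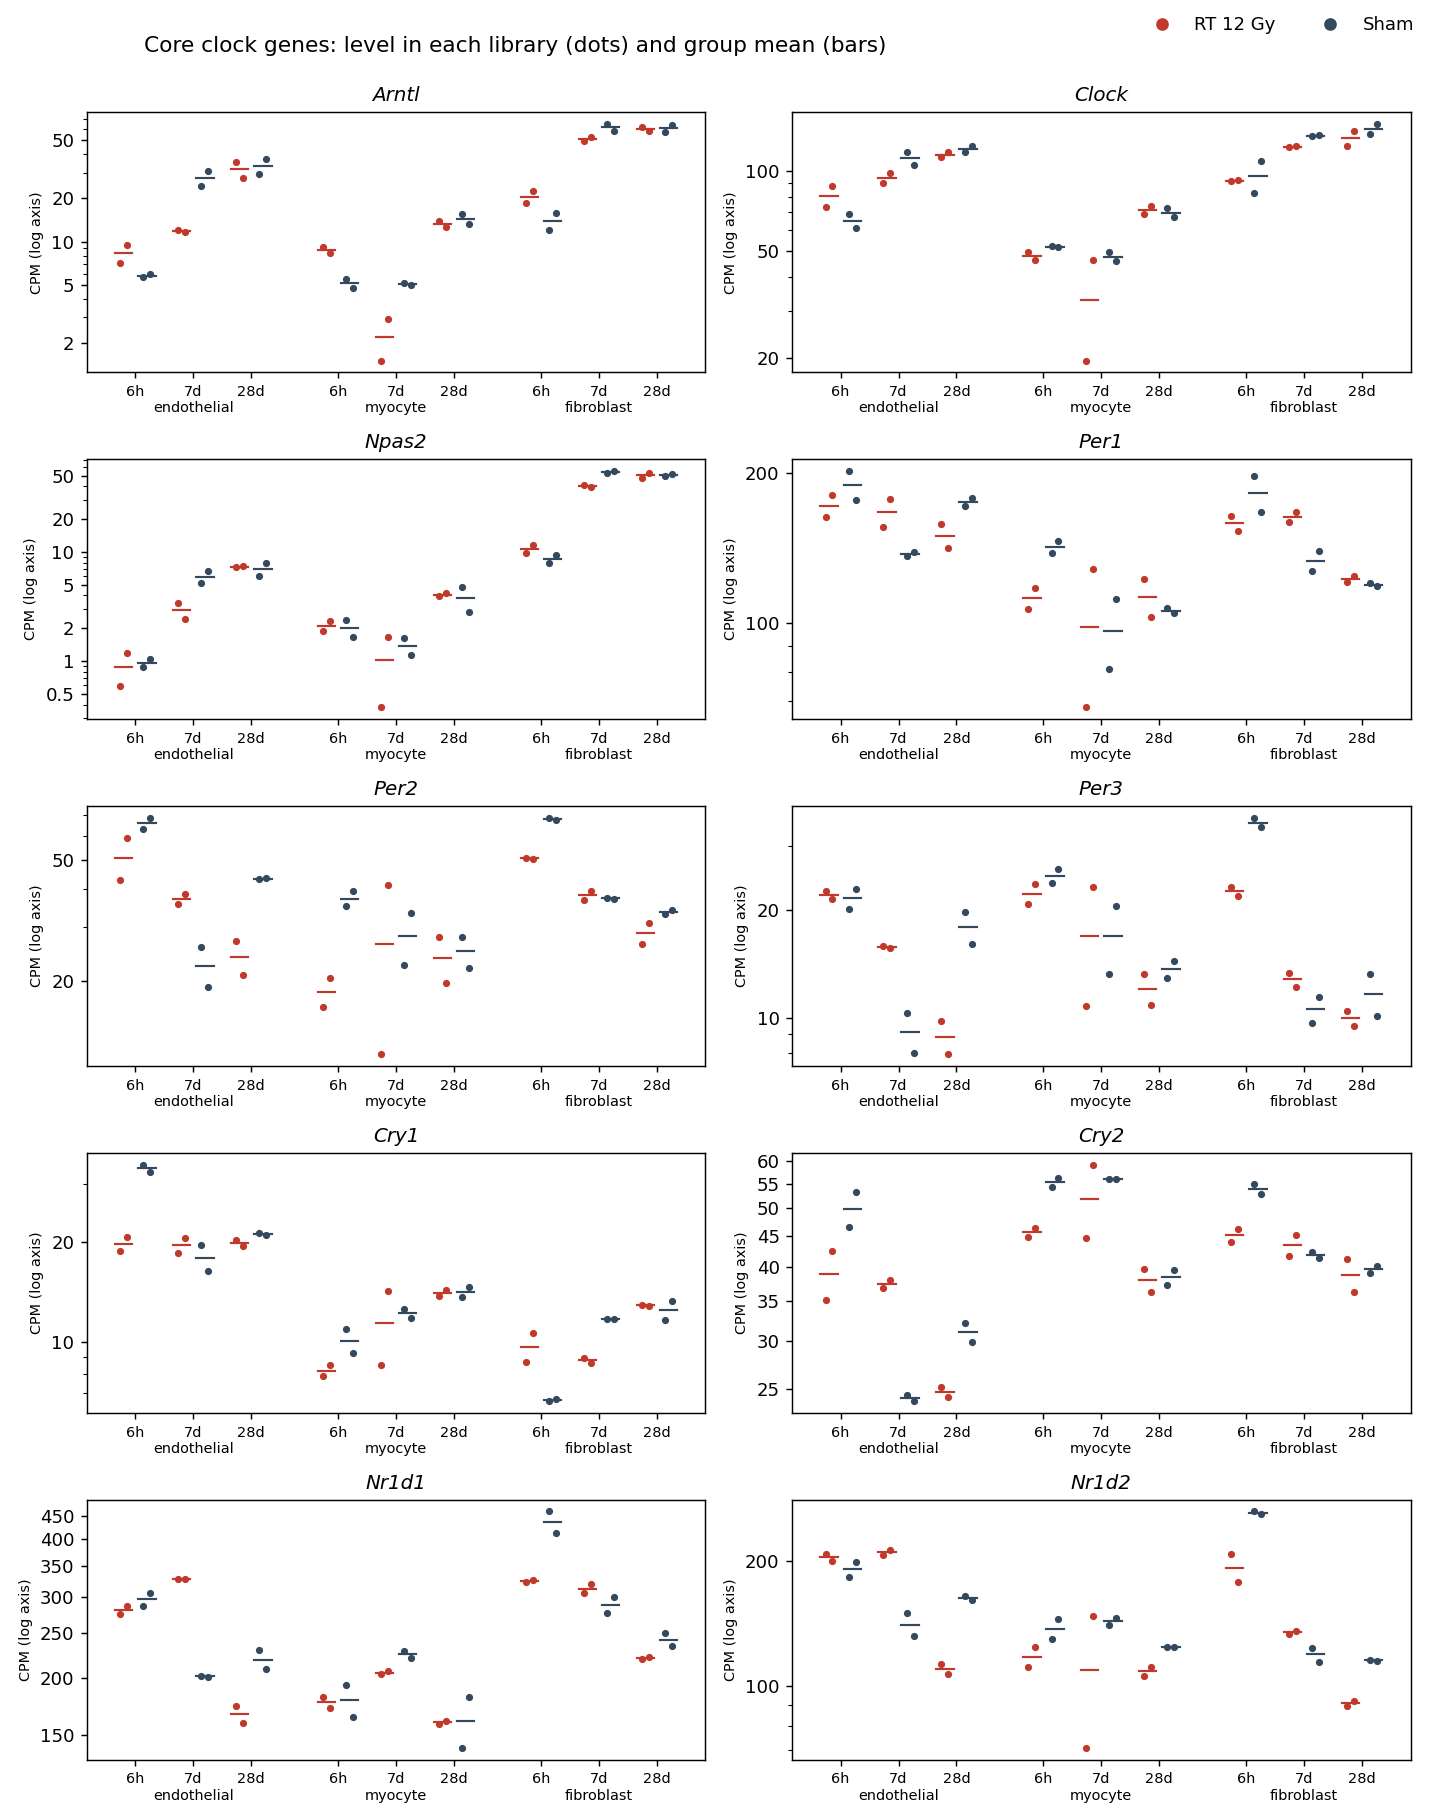
CPM on a log axis of the 10 clock genes in each library (dots) with the mean of the 2 libraries (bars), by cell type and time, RT left of Sham. Arntl and Npas2 lie lowest at 6 hours in endothelial cells and fibroblasts, and the fibroblast Sham libraries of 6 hours hold the highest levels of Per3, Nr1d1 and Nr1d2 in the series.

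At 6 hours in endothelial cells, irradiation went with less of both cryptochromes, the partners of the PER proteins in repression. Cry1 was at 18.9 and 20.8 CPM in RT libraries, against 34.4 and 32.6 CPM in Sham libraries, a log2 fold change of -0.80 ± 0.11 (adjusted p = 0.00059). Cry2 was at 35.2 and 42.5 CPM in RT libraries, against 46.5 and 53.2 CPM in Sham libraries (-0.40 ± 0.10, adjusted p = 0.023). RT and Sham libraries did not overlap for either gene. Here and below, the share of all genes without such overlap was not counted, so a lack of overlap is description only. These were 2 calls among the 10 genes, both lower, beside 11.3% of all 14919 genes called in that comparison and 5.23% called lower, with a median log2 fold change of -0.12 over the 10 and 0.01 over all genes. Arntl had 0.48 ± 0.19 (adjusted p = 0.12) and Per2 -0.41 ± 0.16 (adjusted p = 0.12), and the other 6 lay between -0.18 and 0.26. Cry1 kept its call in every alternative, whereas Cry2 lost it without either Sham library, without the first RT library and with limma, at adjusted p of 0.05 to 0.13, which left 1 call. The sum of the 10 endothelial markers was also lower at that time, at 18160 and 17400 CPM in RT libraries and 24320 and 21480 CPM in Sham libraries, with 3 of the 10 called lower. Of 10 fibroblast markers 2 were called higher, with 1 of 7 macrophage markers tested higher and 1 of 8 mural markers lower. The part of these markers in the results was not tested.

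At 7 days in endothelial cells, Arntl was lower and 5 of the 7 repressor genes were higher after irradiation. Arntl was at 12.0 and 11.6 CPM in RT libraries, against 24.1 and 30.9 CPM in Sham libraries, a fall by 1.23 ± 0.17 on the log2 scale (adjusted p = 0.0012). Its partner Npas2 was at 3.45 and 2.44 CPM in RT libraries, against 5.19 and 6.73 CPM in Sham libraries, a difference of the same sign that missed the threshold (-1.03 ± 0.26, adjusted p = 0.076). Clock had -0.25 ± 0.11 (adjusted p = 0.47), with both RT libraries, at 89.8 and 98.0 CPM, below the Sham libraries, at 117.3 and 104.8 CPM. For Arntl and Npas2, too, no RT library reached a Sham library.

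The REV-ERB genes rose in the same comparison. Nr1d1 was at 327.4 and 328.1 CPM in RT libraries, against 201.9 and 201.0 CPM in Sham libraries (0.69 ± 0.08, adjusted p = 0.00029). Nr1d2 was at 207.1 and 212.5 CPM in RT libraries, against 149.4 and 131.5 CPM in Sham libraries (0.57 ± 0.08, adjusted p = 0.0017). Within each gene the 2 RT libraries were nearly equal and far above both Sham libraries. Cry2 was at 36.83 and 38.02 CPM in RT libraries and at 24.4 and 23.9 CPM in Sham libraries (0.62 ± 0.10, adjusted p = 0.0048). Per3, a period gene that is dispensable for the core loop in mice, was at 15.8 and 15.7 CPM in RT libraries and at 10.3 and 7.99 CPM in Sham libraries (0.77 ± 0.15, adjusted p = 0.014). Per2, whose product brings CRY proteins into the repressor complex, was at 35.9 and 38.6 CPM in RT libraries and at 25.7 and 19.1 CPM in Sham libraries (0.72 ± 0.17, adjusted p = 0.048). Groups did not overlap for any of the 3.

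In all, 6 of the 10 genes were called at 7 days, 5 higher and 1 lower, where 1.82% of all genes were called, 0.925% higher and 0.891% lower, and the median log2 fold change was 0.42 over the 10 and 0.00 over all genes. Per1 had 0.27 and Cry1 0.11, neither called. Leaving out the second Sham library left 3 calls, as did leaving out the second RT library, and Per2 lost its call in 13 alternatives, at adjusted p of 0.050 to 0.41. None of the 10 endothelial markers was called, with sums of 16770 and 18110 CPM in RT libraries and 19830 and 18690 CPM in Sham libraries. Fibroblast markers, none of the 10 called, summed to 4827 and 4390 CPM in RT libraries and to 5998 and 5800 CPM in Sham libraries, and fibroblasts hold more Arntl and Npas2, so their sum moved with these 2 genes. Its part in the result was not tested.

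At 28 days in endothelial cells, Per2, Per3, Nr1d1 and Nr1d2 were lower after irradiation, the opposite sign to that at 7 days, and Arntl was not called. Per3 was at 9.81 and 7.91 CPM in RT libraries, against 19.7 and 16.0 CPM in Sham libraries, and fell by 1.01 ± 0.15 (adjusted p = 0.0011). Per2 was at 27.0 and 20.8 CPM in RT libraries, against 43.1 and 43.6 CPM in Sham libraries, and fell by 0.86 ± 0.17 (adjusted p = 0.0058). Nr1d2 was at 112.8 and 106.6 CPM in RT libraries, against 164.9 and 161.4 CPM in Sham libraries, and fell by 0.57 ± 0.08 (adjusted p = 0.00091). Every RT library lay below every Sham library for these 3 genes. Nr1d1 followed, at 173.6 and 159.0 CPM in RT libraries and 229.3 and 208.7 CPM in Sham libraries (-0.40 ± 0.08, adjusted p = 0.0085).

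These were 4 calls, all lower, where 9.97% of all genes were called and 4.25% were called lower, and the count was 2 without the second RT library. Cry2 had -0.33 ± 0.10 (adjusted p = 0.063) and Per1 -0.23 ± 0.10 (adjusted p = 0.19). Arntl was at 35.6 and 27.6 CPM in RT libraries and 29.2 and 37.0 CPM in Sham libraries, with full overlap (-0.07 ± 0.16, adjusted p = 0.82). Clock, at -0.07, Npas2, at 0.07, and Cry1, at -0.09, also lay near 0. The endothelial markers summed to 16120 and 15500 CPM in RT libraries and to 19430 and 18990 CPM in Sham libraries, with 2 of the 10 called lower. Of the markers of other cell types, 5 of 6 erythroid, 2 of 10 myocyte and 2 of 10 fibroblast markers were also called lower and 1 of 8 mural markers higher. The erythroid sum was 1041 and 431.3 CPM in RT libraries and 2148 and 1616 CPM in Sham libraries. The part of these markers in the result was not tested.

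In fibroblasts most calls were made at 6 hours, where 7 of the 10 genes passed the test. Arntl was at 18.6 and 22.2 CPM in RT libraries, against 11.9 and 15.7 CPM in Sham libraries (0.56 ± 0.12, adjusted p = 0.0032). Cry1 was at 8.67 and 10.6 CPM in RT libraries, against 6.63 and 6.74 CPM in Sham libraries (0.52 ± 0.12, adjusted p = 0.0043). These 2 genes were the ones that rose, and the groups did not overlap for either. Per3 was at 23.2 and 21.8 CPM in RT libraries, against 36.02 and 33.85 CPM in Sham libraries, and fell by 0.64 ± 0.11 (adjusted p = 0.00091). Per2 was at 50.6 and 50.4 CPM in RT libraries, against 68.7 and 67.6 CPM in Sham libraries, and fell by 0.44 ± 0.08 (adjusted p = 0.0008). In both groups of both period genes the 2 libraries lay within a few CPM of each other.

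The REV-ERB genes also fell in fibroblasts at 6 hours. Nr1d1 was at 322.9 and 326.1 CPM in RT libraries, against 460.5 and 413.6 CPM in Sham libraries (-0.43 ± 0.07, adjusted p = 0.00064). Nr1d2 was at 207.8 and 177.7 CPM in RT libraries, against 263.3 and 258.9 CPM in Sham libraries (-0.44 ± 0.08, adjusted p = 0.00068). Cry2 was at 43.9 and 46.3 CPM in RT libraries and at 54.9 and 52.9 CPM in Sham libraries (-0.26 ± 0.07, adjusted p = 0.015). All 3 had both RT libraries below both Sham libraries. The 7 calls stand beside 24.6% of all 14998 genes called in that comparison, 12.3% higher and 12.3% lower, with a median of -0.23 over the 10 genes and -0.002 over all. Npas2 had 0.28 ± 0.11 (adjusted p = 0.076), Per1 -0.21 ± 0.08 (adjusted p = 0.093) and Clock -0.06 ± 0.10 (adjusted p = 0.72). A single fit of all 36 libraries, whose shared spread includes the more variable myocyte libraries, made 4 calls. The fibroblast markers summed to 66530 and 64700 CPM in RT libraries and to 76890 and 72420 CPM in Sham libraries, with 5 of the 10 called lower. Of the markers of other cell types, 4 of 8 mural markers were called lower and 1 higher, 1 of 6 mesothelial markers lower and 2 higher, 2 of 10 endothelial markers lower and 1 of 6 macrophage markers tested higher. The mural sum was 1127 and 1059 CPM in RT libraries and 1403 and 1338 CPM in Sham libraries. The part of these markers in the result was not tested.

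Nr1d1 lies on the minus strand of chromosome 11 and shares 263 of its 3077 annotated exon bases with Thra, the thyroid hormone receptor gene on the plus strand. Whether reads were counted by strand is not given in the sources used here, so reads from the shared bases cannot be assigned. Thra was lower after irradiation in fibroblasts at 6 hours as well, at 106.8 and 109.9 CPM in RT libraries and 139.0 and 145.8 CPM in Sham libraries (-0.40, adjusted p = 0.0004). At 7 days in endothelial cells, where Nr1d1 rose, Thra had -0.17 (adjusted p = 0.54). Cry2 shares 295 of 6320 exon bases with D930015M05Rik, whose group means were 1.04 to 2.52 CPM, far below those of Cry2. Arntl shares 33 of 7523 exon bases with an antisense gene.

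At 7 and 28 days in fibroblasts, 1 gene was called at each time, beside 1.84% and 3.29% of all genes, and both were lower, as were 0.327% and 0.813% of all genes. At 7 days it was Npas2, at 41.5 and 39.8 CPM in RT libraries and 53.3 and 55.4 CPM in Sham libraries (-0.42 ± 0.08, adjusted p = 0.02). Cry1 had -0.41 ± 0.11 there (adjusted p = 0.08) and Arntl -0.27 ± 0.10 (adjusted p = 0.24), against 0.52 and 0.56 at 6 hours. At 28 days it was Nr1d2, at 89.5 and 92.1 CPM in RT libraries and 115.5 and 114.6 CPM in Sham libraries (-0.36 ± 0.08, adjusted p = 0.016). In both cases the groups did not overlap, but the Npas2 call was lost without any 1 of the 4 libraries of 7 days, and that of Nr1d2 without any 1 of the 4 libraries of 28 days. The other 9 genes at 28 days lay between -0.25 and 0.03.

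In myocytes, edgeR called 0 of the 10 genes at 6 hours, 7 days or 28 days, where 0.326%, 0.085% and 0.0354% of all 14115 genes were called. At an unadjusted p under 0.05 there were 3 genes at 6 hours, 1 at 7 days and 0 at 28 days, and DESeq2 and limma also called 0 at each time. At 6 hours Per2 was at 16.4 and 20.5 CPM in RT libraries and 35.1 and 39.3 CPM in Sham libraries (-1.04 ± 0.41). Arntl was at 9.18 and 8.40 CPM in RT libraries and 5.49 and 4.78 CPM in Sham libraries (0.75 ± 0.23, adjusted p = 0.62). Neither gene overlapped between the groups, and neither was called with all 12 libraries. Without the first RT library of 7 days, Per2 at 6 hours was called (-1.03 ± 0.21, adjusted p = 0.028), as it was without the second.

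At 7 days the 2 RT myocyte libraries disagreed. Arntl was at 1.51 and 2.90 CPM in RT libraries, both below the 5.19 and 5.03 CPM of Sham libraries (-1.15 ± 0.26, adjusted p = 0.24). Clock was at 19.6 and 46.4 CPM in RT libraries, against 49.7 and 45.9 CPM in Sham libraries. Per2 was at 11.5 and 41.3 CPM in RT libraries, against 22.5 and 33.4 CPM in Sham libraries. For Clock, Per2 and Nr1d2 the first RT library was below, and the second near or above, the Sham libraries. With that first library as the lone RT sample, assumed to vary like the other groups, 5 genes were called lower, led by Clock (-1.06 ± 0.12) and with Arntl, Npas2, Per2 and Nr1d2 among them. With the second as the lone sample 0 were called. At 28 days all 10 genes lay between -0.21 and 0.06, and 0 were called without either RT library of 7 days.

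**Figure D2:**
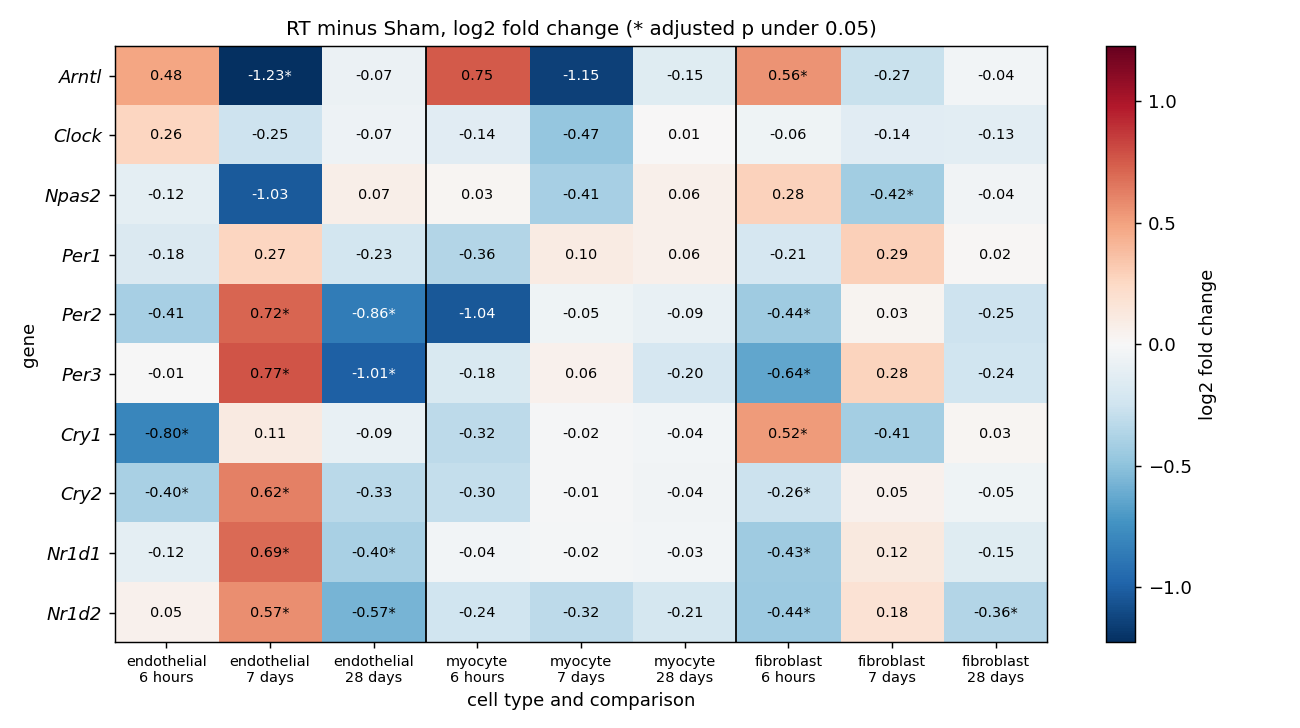
Log2 fold change of RT over Sham (colour and number) for the 10 clock genes in each cell type and time, fitted by edgeR on 2 libraries against 2, with a star where the adjusted p was under 0.05. The endothelial columns of 7 and 28 days carry opposite signs for Per2, Per3, Nr1d1 and Nr1d2, and the myocyte columns carry no star.

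Whether the RT minus Sham difference changed between the times was tested itself, with an F-test over the 3 times. In endothelial cells it changed for 7 of the 10 genes, beside 6.26% of all genes: Nr1d1 (adjusted p = 0.00021), Nr1d2 (0.00021), Per3 (0.00069), Cry2 (0.0013), Arntl (0.0029), Per2 (0.0031) and Cry1 (0.0094). For Nr1d2 the difference was 0.05, 0.57 and -0.57 at 6 hours, 7 days and 28 days, and for Per3 it was -0.01, 0.77 and -1.01. In fibroblasts 8 of the 10 were called, beside 9.89% of all genes, led by Nr1d2 (adjusted p = 0.0032), Cry1 (0.005) and Arntl (0.008); Clock and Cry2 were not. The fibroblast count was 1 in the single fit of all 36 libraries. In myocytes 0 of 10 genes and 0% of all genes were called, with 1 gene at an unadjusted p under 0.05 and 1 called by DESeq2; 0 were called without the first RT library of 7 days and 4 without the second.

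Between cell types, the RT minus Sham difference of Cry1 at 6 hours was the one called (adjusted p = 0.00028, beside 2.11% of all genes), at -0.80 in endothelial cells, -0.32 in myocytes and 0.52 in fibroblasts. The count was 1 without each library in turn. At 7 days Cry2 was called (adjusted p = 0.044, beside 0.363% of all genes), at 0.62 in endothelial cells, -0.01 in myocytes and 0.05 in fibroblasts. That call was lost without any 1 of 10 of the 12 libraries of that time, while 2 genes were called without the first and 8 without the second RT myocyte library. At 28 days edgeR and DESeq2 called 0 genes, beside 0.37% of all, with 1 at an unadjusted p under 0.05. The fall of Per2 and Per3 in endothelial cells at 28 days is thus not shown to differ from fibroblasts, whose values were -0.25 and -0.24.

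Differences between Sham times reached 2.81 on the log2 scale in endothelial cells and 2.65 in fibroblasts. The comparisons between times use the same Sham libraries as those above, and the 3 time pairs share groups, so they are not independent. In endothelial cells all 10 genes were called between 7 days and 6 hours, where 5.73% of all genes were, 3.07% higher and 2.66% lower. Arntl was at 24.1 and 30.9 CPM at 7 days, against 5.69 and 5.94 CPM at 6 hours (2.20 ± 0.18, adjusted p = 0.00012). Npas2 was at 5.19 and 6.73 CPM at 7 days, against 0.89 and 1.06 CPM at 6 hours (2.58 ± 0.30, adjusted p = 0.0012). Clock rose by 0.73 ± 0.11. The activators were thus higher and the 7 repressors lower at 7 days. Per2 was at 25.7 and 19.1 CPM at 7 days, against 63.2 and 68.3 CPM at 6 hours (-1.59 ± 0.17, adjusted p = 0.00062). Per3 had -1.26, Cry2 -1.08, Cry1 -0.93, Nr1d1 -0.59, Per1 -0.50 and Nr1d2 -0.48, with adjusted p of 0.00034 to 0.017.

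Between 28 days and 6 hours, 8 of the 10 were called in endothelial Sham libraries, 3 higher and 5 lower, beside 30.1% of all genes, 15.5% higher and 14.7% lower. Arntl was at 29.2 and 37.0 CPM at 28 days, against 5.69 and 5.94 CPM at 6 hours (2.47 ± 0.18, adjusted p = 3e-05), and Npas2 had 2.81 ± 0.29 (adjusted p = 0.00035). Clock had 0.83, Per2 -0.65, Cry1 -0.71, Cry2 -0.72, Nr1d1 -0.48 and Nr1d2 -0.27. Per1, at -0.16, and Per3, at -0.31, were not called. Between 28 and 7 days, Per3 was at 19.7 and 16.0 CPM at 28 days, against 10.3 and 7.99 CPM at 7 days (0.95 ± 0.15, adjusted p = 0.02), and Per2 at 43.1 and 43.6 CPM, against 25.7 and 19.1 CPM (0.94 ± 0.17, adjusted p = 0.022). These 2 calls, beside 5.91% of all genes called and 3.76% called higher, were lost without any 1 of the 4 libraries compared, and 4 were made by DESeq2 and without either RT library of 6 hours. For Arntl the Sham libraries of 28 and 7 days overlapped.

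Fibroblast markers moved with the endothelial Sham times: 9 of the 10 were called higher at 7 days and 8 at 28 days than at 6 hours, and their sum was 5998 and 5800 CPM at 7 days and 4643 and 6619 CPM at 28 days, against 2652 and 3333 CPM at 6 hours. In fibroblast libraries the same sum was 64700 to 82540 CPM, and Sham fibroblasts held up to 55.4 CPM of Npas2. The part of fibroblast RNA in the endothelial Npas2 and Arntl differences was not tested. Within fibroblasts themselves the same genes differed between times.

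In fibroblast Sham libraries all 10 genes were called both between 7 days and 6 hours, beside 7.32% of all genes (2.55% higher and 4.77% lower), and between 28 days and 6 hours, beside 4.8% (2.09% higher and 2.71% lower). Arntl was at 64.8 and 58.3 CPM at 7 days and 56.97 and 64.0 CPM at 28 days, against 11.9 and 15.7 CPM at 6 hours, a log2 fold change of 2.16 ± 0.11 at both times (adjusted p = 8.1e-08 and 1.3e-07). Npas2 was at 53.3 and 55.4 CPM at 7 days and 50.1 and 52.3 CPM at 28 days, against 7.95 and 9.42 CPM at 6 hours (2.65 ± 0.10 and 2.59 ± 0.10). Clock had 0.51 and 0.61. Per3 was at 9.67 and 11.5 CPM at 7 days and 13.2 and 10.1 CPM at 28 days, against 36.02 and 33.85 CPM at 6 hours (-1.72 ± 0.12 and -1.56 ± 0.12). Nr1d2 was at 123.6 and 114.4 CPM at 7 days and 115.5 and 114.6 CPM at 28 days, against 263.3 and 258.9 CPM at 6 hours (-1.13 ± 0.08 and -1.16 ± 0.08). Thus the 6-hour libraries held least of the activator genes and most of the period and REV-ERB genes, with no overlap with the later times for any of these 4.

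Per2 had -0.86 and -0.99, Nr1d1 -0.60 and -0.83, Per1 -0.44 and -0.58 and Cry2 -0.36 and -0.42 in fibroblasts at 7 and 28 days against 6 hours. Cry1 moved in opposite directions in the 2 cell types: it rose in fibroblasts, at 11.7 CPM in both libraries of 7 days against 6.63 and 6.74 CPM at 6 hours (0.82 ± 0.11, adjusted p = 0.00056), and fell in endothelial cells, at 19.7 and 16.4 CPM at 7 days against 34.4 and 32.6 CPM at 6 hours (-0.93 ± 0.11, adjusted p = 0.0016). The difference between the 2 cell types in this change was not tested. Between 28 and 7 days edgeR, DESeq2 and limma called 0 of the 10 genes in fibroblasts, beside 0.273% of all genes, with 1 at an unadjusted p under 0.05. Mesothelial markers moved with the fibroblast times, with 6 of 6 called lower at 7 days and 3 at 28 days than at 6 hours and sums of 1043 to 2438 CPM over the Sham libraries, and their part was not tested. Thra, unlike Nr1d1, rose at 7 days (0.29, adjusted p = 0.012).

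In myocyte Sham libraries edgeR called 0 of the 10 genes in each of the 3 time pairs, beside 0%, 0% and 0.0213% of all genes. Unadjusted p was under 0.05 for 2 genes between 7 days and 6 hours, 4 between 28 days and 6 hours and 4 between 28 and 7 days, and DESeq2 called 0, 1 and 2. Arntl was at 5.49 and 4.78 CPM at 6 hours, 5.19 and 5.03 CPM at 7 days and 15.5 and 13.1 CPM at 28 days, so that the libraries of 28 days stood above the other 4. Its log2 fold change was 0.03 ± 0.24 between 7 days and 6 hours, 1.44 ± 0.23 between 28 days and 6 hours (adjusted p = 0.43) and 1.41 ± 0.23 between 28 and 7 days (adjusted p = 0.12). Without the first RT library of 7 days, which none of these contrasts uses but which adds to the spread, 0, 2 and 4 genes were called. These were Arntl (1.43 ± 0.18, adjusted p = 0.0095) and Cry2 (-0.57 ± 0.09, adjusted p = 0.023) between 28 days and 6 hours, and Arntl (1.40 ± 0.18, adjusted p = 0.0034), Cry2 (-0.63 ± 0.09), Clock (0.47 ± 0.10) and Nr1d1 (-0.57 ± 0.12) between 28 and 7 days. The counts were equal without the second RT library of 7 days.

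**Figure D3:**
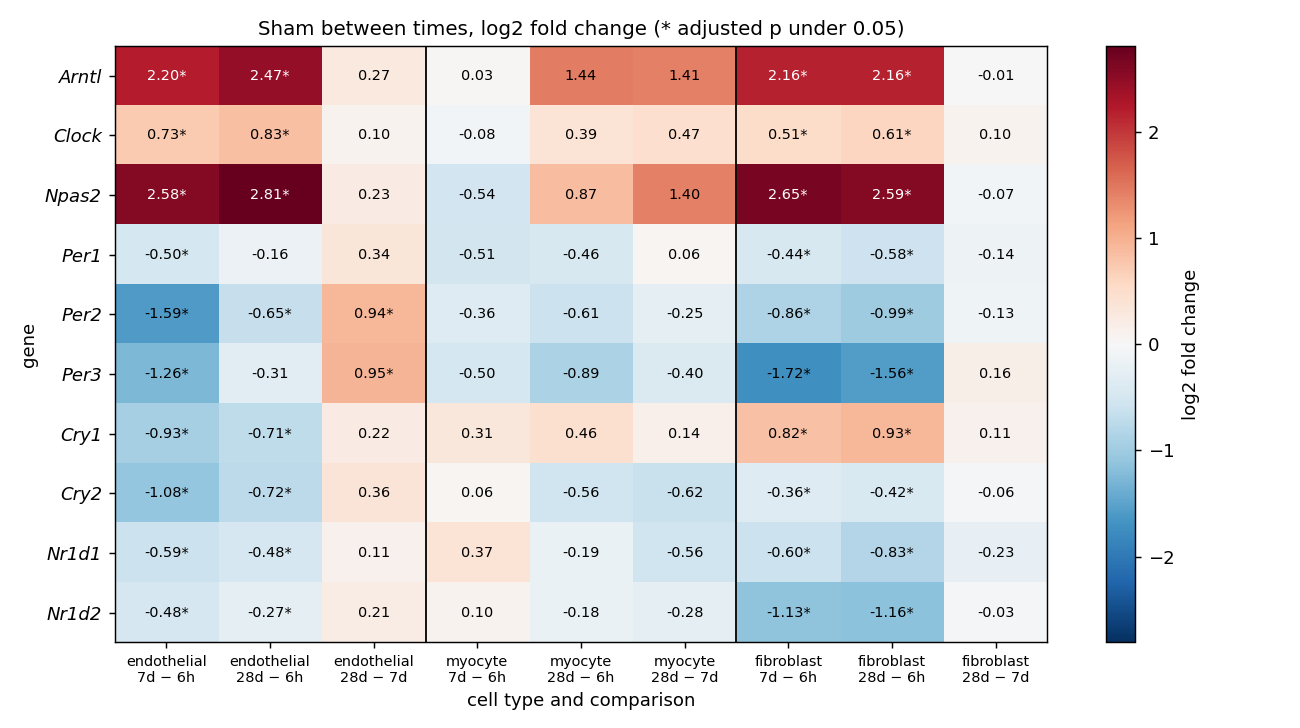
Log2 fold change between times in Sham libraries (colour and number) for the 10 clock genes in each cell type, fitted by edgeR on 2 libraries against 2, with a star where the adjusted p was under 0.05. Arntl and Npas2 are above 2 at both later times in endothelial cells and fibroblasts, and Cry1 has opposite signs there.

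The hour of day at which each group was collected is not in the labels, and a difference of hour between collections cannot be told apart from the time after treatment in the Sham comparisons. Whether RT and Sham mice of a time were taken at the same hour is not stated either, and the part of the hour in the RT minus Sham differences was not tested. The values can be set side by side within each library as the log2 ratio of Arntl to Per3, which library scaling cannot change. In endothelial cells it was -1.66 and -1.18 in RT and -1.82 and -1.95 in Sham libraries at 6 hours, -0.40 and -0.43 in RT and 1.23 and 1.95 in Sham libraries at 7 days, and 1.86 and 1.80 in RT and 0.57 and 1.21 in Sham libraries at 28 days. The RT libraries of 7 days thus lay between the Sham libraries of 6 hours and those of 7 days. In this ratio the RT libraries of 28 days lay above the Sham libraries of 28 days, but not in every ratio. For Arntl to Nr1d1 they overlapped, at -2.287 and -2.526 in RT and -2.973 and -2.497 in Sham libraries. For Arntl to Per1 they overlapped too, with a mean difference of RT minus Sham of 0.16, against 0.94 for Per3.

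In fibroblasts the ratio of Arntl to Per3 was -0.32 and 0.03 in RT and -1.60 and -1.11 in Sham libraries at 6 hours. At 7 days it was 1.90 and 2.10 in RT and 2.75 and 2.35 in Sham libraries, and at 28 days 2.56 and 2.62 in RT and 2.11 and 2.66 in Sham libraries. RT and Sham did not overlap at 6 hours and 7 days and overlapped at 28 days. In myocytes it was -1.18 and -1.49 in RT and -2.11 and -2.44 in Sham libraries at 6 hours, -2.84 and -3.00 in RT and -1.35 and -2.03 in Sham libraries at 7 days, and 0.06 and 0.20 in RT and 0.27 and -0.13 in Sham libraries at 28 days. The mean difference of RT minus Sham in this ratio was 0.46, 0.94 and 1.21 at 6 hours in endothelial cells, myocytes and fibroblasts and -2.00, -1.23 and -0.55 at 7 days, so its sign was shared by the 3 cell types at both times. The labels do not say whether the 3 cell types of a time came from the same hearts, so they may not be independent. The RT myocyte library that stood apart did not do so in this ratio, at -2.84 against -3.00 in its partner. It differed more from its partner in the ratio of Arntl to Nr1d1, at -7.076 against -6.159, and to Per2, at -2.927 against -3.835.

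**Figure D4:**
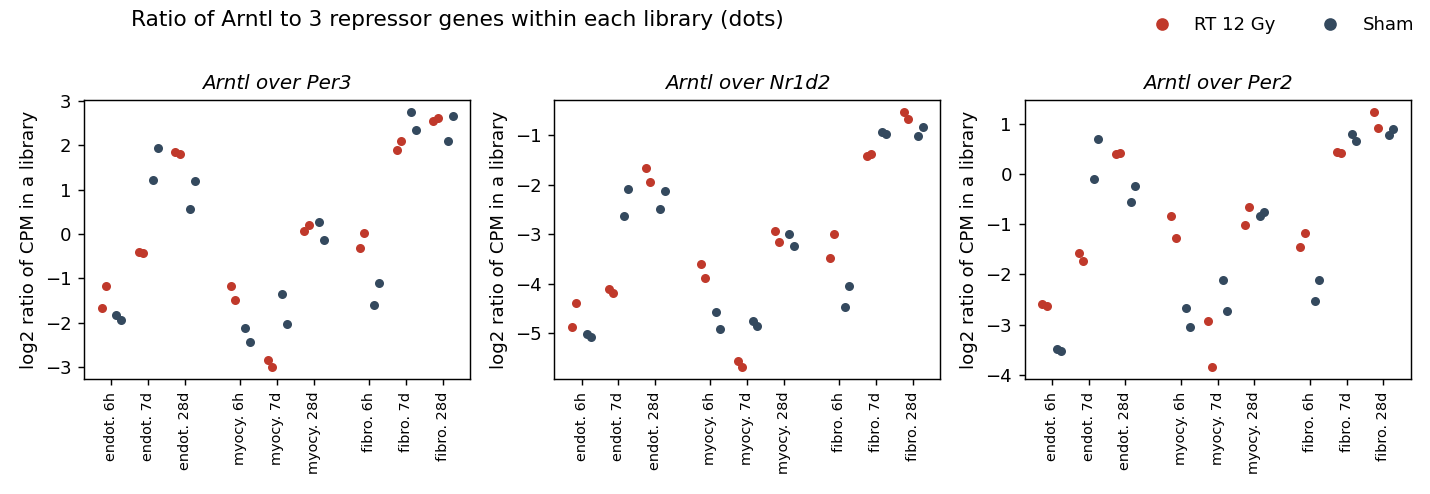
Log2 ratio of the CPM of Arntl to that of Per3, Nr1d2 or Per2 in each library (dots), by cell type and time, RT left of Sham. For each ratio all RT dots lie above the Sham dots at 6 hours and below them at 7 days in the 3 cell types. The 3 ratios share Arntl, and the cell types may share hearts.

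Across the 36 libraries, each cell type centred on its own mean, the activators varied together. Pearson's r of log2(CPM + 1) was 0.94 for Arntl and Npas2 and 0.87 for Arntl and Clock. Arntl ran against Nr1d1, at -0.80, and Cry2, at -0.79. It had -0.54 with Per2, -0.69 with Per3 and -0.61 with Nr1d2. Without the RT myocyte library that stood apart these 3 values were -0.76, -0.82 and -0.82. Among the 12 myocyte libraries Arntl had -0.702 with Nr1d1, -0.705 with Cry2 and -0.22 with Per3. There it had 0.27 with Per1, 0.03 with Per2 and 0.15 with Nr1d2. Among the repressors Per3 and Nr1d2 had 0.86, Per2 and Per3 0.81, and Per1 and Per2 0.80, while Cry1 had between -0.28 and 0.26 with each of the other 9. Within single cell types Cry1 had opposite signs that cancel in this measure: with Per1 it had 0.70 among the 12 endothelial and -0.94 among the 12 fibroblast libraries, with Per2 0.75 and -0.87, and with Arntl -0.60 and 0.82. These values are a description: the libraries share collections, depth and treatment.

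**Figure D5:**
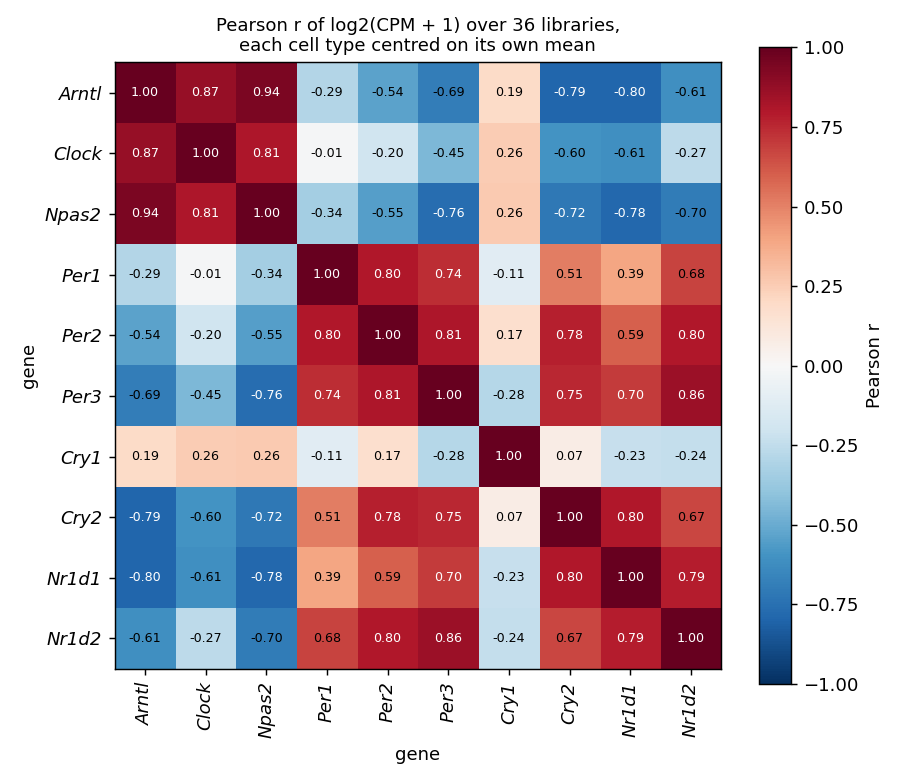
Pearson's r between the log2(CPM + 1) of each pair of clock genes over 36 libraries after subtraction of each cell type's mean, with r as colour and number. The RT myocyte library that stood apart is included. Arntl, Clock and Npas2 form a positive block, the Per and Nr1d genes and Cry2 another, and Cry1 lies between -0.28 and 0.26 with all, where its values of opposite sign in endothelial cells and fibroblasts are pooled.

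Of 9178 genes with at least 5 CPM on average in each cell type, those most like Arntl by this measure over the 36 libraries were Nfil3, a repressor that binds D-boxes (r = 0.90), Col5a3 (0.89) and Adamts4 (0.88). The most unlike were Tspan4 (-0.95), Dbp, a D-box activator driven by the clock (-0.93), and Sphk2 (-0.93). Tef, another D-box activator, was the nearest to Per3 (0.89) and Nr1d2 (0.85), Dbp to Nr1d1 (0.88) and Cry2 (0.83), Mknk2 to Per1 (0.84) and Per2 (0.79), Ascc3 to Clock (0.94), Col5a3 to Npas2 (0.89) and Tspan9 to Cry1 (0.70). For Arntl the value with Nfil3 within single cell types was 0.92 among the 12 endothelial, 0.84 among the 12 myocyte and 0.93 among the 12 fibroblast libraries.

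A further 26 genes of the clock pathway, among them its outputs and modifiers, were counted beside the 10. Of all genes, 11.3%, 1.82% and 9.97% were called between RT and Sham in endothelial cells at 6 hours, 7 days and 28 days. In fibroblasts 24.6%, 1.84% and 3.29% were. In endothelial cells at 7 days 5 rose and 0 fell after irradiation, led by Tef (0.91 ± 0.09, adjusted p = 5.9e-05) and Dbp (1.45 ± 0.14, adjusted p = 6.3e-05). At 28 days 0 rose and 5 fell, led by Tef (-0.52 ± 0.09, adjusted p = 0.0025). At 6 hours 3 rose, led by Pdk4 (0.99 ± 0.13, adjusted p = 0.00043), and 3 fell, led by Tspan4 (-0.43 ± 0.09, adjusted p = 0.0075). Pdk4 is also among the glucocorticoid targets counted below. In fibroblasts at 6 hours 4 rose and 8 fell, led by Hlf, a D-box activator (-1.41 ± 0.08, adjusted p = 2.3e-08), and Bhlhe41, an E-box repressor (-0.95 ± 0.08, adjusted p = 1.1e-06). At 7 days 2 rose, Dbp (0.70 ± 0.12, adjusted p = 0.0069) and Tef (0.44 ± 0.09, adjusted p = 0.02), and at 28 days 1 fell, Hlf (-0.36 ± 0.09, adjusted p = 0.034).

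In Sham libraries of endothelial cells and fibroblasts, Dbp and Tef were among the genes lower at the later times than at 6 hours. Beside the counts that follow, 5.73% of all genes were called between 7 days and 6 hours in endothelial cells. In fibroblasts 7.32% were at 7 days and 4.8% at 28 days, each against 6 hours. Between 7 days and 6 hours in endothelial cells 1 of the 26 rose and 9 fell, led by Tef (-1.28 ± 0.09, adjusted p = 4.8e-05) and Dbp (-1.78 ± 0.14, adjusted p = 0.00012). Between 28 days and 6 hours in endothelial cells 4 rose and 10 fell, beside 30.1% of all genes called. These were led by Tspan4 (-1.25 ± 0.09, adjusted p = 3.0e-05) and Dbp (-1.99 ± 0.14, adjusted p = 3.0e-05). In fibroblasts 1 rose and 12 fell both at 7 days, led by Hlf (-1.65 ± 0.08, adjusted p = 8.1e-08) and Tef (-1.62 ± 0.09, adjusted p = 1.1e-07), and at 28 days, led by Tef (-1.55 ± 0.09, adjusted p = 2.5e-07) and Dbp (-2.06 ± 0.12, adjusted p = 2.5e-07). In myocytes 25 of the 26 were tested. Of these, 0 were called by edgeR in any comparison of RT and Sham or of Sham times, beside at most 0.326% of all genes. At an unadjusted p under 0.05 there were 2, 2 and 1 between RT and Sham at 6 hours, 7 days and 28 days.

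Genes that respond to glucocorticoid hormone, to cell handling or to temperature were counted in 3 short lists. The shares of all genes called between RT and Sham are those given with the pathway genes. In Sham endothelial cells they were 5.73% (7 days against 6 hours), 30.1% (28 days against 6 hours) and 5.91% (28 against 7 days). In Sham fibroblasts they were 7.32% and 4.8% for 7 and 28 days against 6 hours. Of 12 glucocorticoid targets, 3 rose and 2 fell in endothelial cells at 6 hours after irradiation, led by the metallothionein Mt2 (2.73 ± 0.14), 1 fell at 7 days and 4 fell at 28 days. In fibroblasts 2 rose and 3 fell at 6 hours. Between Sham times in endothelial cells 1 was higher and 6 were lower at 7 days than at 6 hours, led by Zbtb16 (-1.83 ± 0.19), 3 were higher and 4 lower at 28 days than at 6 hours, led by Fkbp5 (-1.03 ± 0.18), and 1 was higher at 28 than at 7 days. In Sham fibroblasts 3 were lower at 7 days and 3 at 28 days than at 6 hours. Of 14 immediate early and heat shock genes that tissue dissociation also induces, 5 rose in endothelial cells at 6 hours, led by the p53 target Btg2 (0.71 ± 0.12), and 1 rose at 7 days, and in Sham endothelial cells 6 rose at 7 days and 12 at 28 days against 6 hours, led by Hspa1b (1.01 ± 0.15 and 1.51 ± 0.15). In fibroblasts 4 of them rose at 6 hours after irradiation, led by Ier3 (0.66 ± 0.16), and 1, Btg2, was lower in Sham libraries of 7 and of 28 days than of 6 hours. Of 6 cold- or heat-responsive genes, Cirbp rose in irradiated endothelial cells at 6 hours (0.69 ± 0.19) and Dnajb1 fell in irradiated fibroblasts at 6 hours (-0.39 ± 0.11). Rbm3 rose in irradiated endothelial cells at 28 days (0.74 ± 0.13) and was lower in Sham endothelial cells at 28 days than at 6 hours (-0.98 ± 0.13) and than at 7 days (-0.99 ± 0.13), and in Sham fibroblasts at 28 days than at 6 hours (-0.37 ± 0.07). Of the same 6 genes 2 were higher in Sham endothelial cells at 28 days than at 6 hours, and 1 was higher at 7 days than at 6 hours in each of Sham endothelial cells (Dnajb1) and Sham fibroblasts (Hsph1). The part of any of these in the clock gene differences was not tested.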

How the data were processed

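Per the labels' protocols, an RNeasy kit yielded the RNA and a SMARTer mRNA-Seq kit the libraries, and the submitters' processing notes name GRCm38 (mm10). The sources used here give no aligner, counter or use of strand. The deposited files hold read counts per RefSeq transcript, 33068 rows and 24061 gene names, and a column headed TPM per the file headers whose values equal RPKM (largest difference 1.8e-12), so they are called RPKM here. For each of 4914 names with several transcripts, the one with the most reads stood for the gene. A further 30 read columns of other libraries were not used.

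The 10 genes and all gene lists were chosen with earlier results of these data known. edgeR 4.0.16 (in R 4.3.3) fitted group means to the deposited counts, separately in the 12 libraries of each cell type, after filterByExpr with a minimum count of 10 and a minimum total of 15 and TMM scaling, by glmQLFit and glmQLFTest, and p-values were adjusted by Benjamini-Hochberg over all genes tested. A fit of all 36 libraries tested differences between cell types. All 10 genes were tested in each comparison and are given singly, in ranges or in counts. Of the other pathway genes, those named are the 2 with the smallest p past 0.05. Of these, 1 gene is not reported here. The other lists are described by the 1 gene with the smallest p. Genes like a member are the 3 with the highest r, and for Arntl also the 3 with the lowest; for members other than Arntl the first is printed. The code was tested on simulated data. The depth is given with the results. Depth was lower in myocytes, and its part in the precision was not tested. Alternatives were RLE factors, no low-count filter, a filter at a mean of 5 CPM, DESeq2 1.42.0, limma 3.58.1 on log2(RPKM + 1), a single fit of 36 libraries, counts summed over transcripts, a replicate block, and each library left out.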

Additional observations from a re-analysis of the deposited data

Results flagged for a closer look

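The RT minus Sham difference itself differed between times, by edgeR's quasi-likelihood F-test adjusted over all genes, for 7 clock genes in endothelial cells. The adjusted p was 0.00021 for Nr1d1 and 0.00021 for Nr1d2, 0.00069 for Per3, 0.0013 for Cry2, 0.0029 for Arntl, 0.0031 for Per2 and 0.0094 for Cry1. Nr1d1 had -0.12 at 6 hours, 0.69 at 7 days and -0.40 at 28 days, and Arntl 0.48, -1.23 and -0.07. In fibroblasts it differed for 8 genes, with adjusted p of 0.0032 for Nr1d2, 0.0050 for Cry1, 0.0080 for Arntl, 0.0095 for Per3, 0.0099 for Nr1d1, 0.011 for Npas2, 0.034 for Per2 and 0.039 for Per1. There Arntl had 0.56 at 6 hours, -0.27 at 7 days and -0.04 at 28 days, and Per3 -0.64, 0.28 and -0.24.

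The difference between cell types in the RT minus Sham difference passed for Cry1 at 6 hours (adjusted p = 0.00028) and for Cry2 at 7 days (adjusted p = 0.044). Cry1 was lower after irradiation in endothelial cells and higher in fibroblasts, and in Sham libraries its change from 6 hours to 7 days had opposite signs in these cell types as well. The 2 comparisons share the Sham libraries of 6 hours.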

How the results depend on the processing

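Of 80 member differences called, 1579 alternative values were computed: 1485 kept sign and call, 93 lost the call and 1 changed sign, Per3 between Sham myocytes and fibroblasts, at -0.029 with limma on log2(RPKM + 1). Of 2579 alternative values of the 130 differences not called, 76 passed the threshold and 69 had the other sign. The cause was not tested, except that a fit of fewer libraries or another set of genes tested changes the adjusted p by construction.

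Counts of members called that moved by over 1.5 times were as follows. Without a low-count filter they were 4 for RT minus Sham in endothelial cells at 6 hours, 4 for Sham endothelial cells between 28 and 7 days, 4 for fibroblasts at 7 days, 3 between cell types at 7 days and 1 for myocytes at 6 hours, at 7 days, between times and in Sham between 28 days and either earlier time. With DESeq2 they were 4 for Sham endothelial cells between 28 and 7 days, 1 and 2 for Sham myocytes between 28 days and 6 hours or 7 days, 1 for myocytes between times, 2 for fibroblasts at 7 days and 4 between cell types at 7 days. With limma they were 1 for endothelial cells at 6 hours, 0 for fibroblasts at 7 days and 2 between cell types at 7 days. The last was 2 with the filter at 5 CPM and 0 with counts summed over transcripts. The single fit of 36 libraries gave 1 for Sham endothelial cells between 28 and 7 days, 1 for myocytes at 7 days, 2 and 3 for Sham myocytes between 28 days and 6 hours or 7 days, 1 for myocytes between times, 4, 0 and 0 for fibroblasts at 6 hours, 7 days and 28 days, 6 for Sham fibroblasts between 7 days and 6 hours and 1 for fibroblasts between times.

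With each library left out in turn, the count for RT minus Sham at 6 hours, 7 days and 28 days ranged over 1 to 3, 3 to 7 and 2 to 5 in endothelial cells, 0 to 1, 0 to 5 and 0 to 0 in myocytes, and 6 to 8, 0 to 2 and 0 to 1 in fibroblasts. For Sham 7 days minus 6 hours, 28 days minus 6 hours and 28 minus 7 days it ranged over 8 to 10, 6 to 8 and 0 to 4 in endothelial cells, 0 to 0, 0 to 2 and 0 to 4 in myocytes, and 9 to 10, 9 to 10 and 0 to 0 in fibroblasts. Between times it was 7 to 8, 0 to 4 and 6 to 8 in endothelial cells, myocytes and fibroblasts, between cell types 1 to 1, 0 to 8 and 0 to 0 at the 3 times, and for Sham levels 6 to 7, 5 to 7 and 7 to 8.

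Replicate numbers are shared between RT and Sham, and the labels do not say whether they pair libraries. Same-numbered libraries deviated together with r of -0.244 to 0.301 over the 9 pairs. Each r sets 1 replicate difference in RT beside 1 in Sham, so it cannot decide whether they were paired. The replicate block moved the count between cell types at 7 days to 0 and no other count by over 1.5 times. Myocyte libraries had 10.18 to 19.42 M reads. The SE of the RT minus Sham difference of Clock in myocytes at 6 hours was 0.25 with all 12 libraries, 0.094 without the first and 0.093 without the second RT library of 7 days; the part of depth was not tested.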
